A study of Mus musculus with 4 samples.

Results

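The genes described here mark fibroblasts of tendon, ligament and periosteum, the fibrous sheet that covers bone. They were read in RNA of odontoblasts and of osteoblasts, the cells that lay down dentin and bone. The set holds 10 genes, Tnmd, Comp, Scx, Mkx, Abi3bp, Igsf10, Dpt, Thy1, Postn and Cilp. Its members were found by their gene names in the scanner files, on probes that are not controls, and 12 of 55681 probes carried one of these names. All 12 probes passed the filter on dim probes, so each of the 10 genes was measured, out of 18560 genes in all. The genes were picked because several of them had very large Cy5 over Cy3 ratios in these same arrays. Their ratios are therefore given as a description, without p-values. Members called in the fit over the whole array are counted below, but nothing is read from those counts.

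The study hybridised 4 two-colour Agilent mouse arrays, each with 1 RNA of each cell type. Per the labels, the Cy5 channel held primary odontoblasts from dental pulp and the Cy3 channel held osteoblasts from calvaria, the bone of the skull vault. Both came from mice aged 2 weeks that carried EGFP, a green fluorescent protein, under a 2.3 kb promoter of type I collagen, and the cells were sorted by that fluorescence after enzyme digestion. The strain C57BL/6 is given for the pulp cells, the series design calls the cells donor matched, and the number of animals behind each array is not stated. That collagen promoter is known to be active in mature cells of both lineages. How pure the sorted cells were was not tested here. The dyes were never swapped, and the cell type and the dye cannot be told apart.

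Tendon and periosteal fibroblasts secrete collagen fibrils and the proteins that space and join them. Scx and Mkx encode transcription factors that start and maintain the tendon programme, and Tnmd is a classic gene downstream of Scx. The remaining members encode secreted or surface proteins of dense connective tissue. In bulk RNA, fewer cells of a type and less RNA per cell cannot be told apart.

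Each ratio is the log2 of the Cy5 signal divided by the Cy3 signal, after background correction and loess, a smoothing that removes intensity-dependent dye bias within an array. Ratios above 0 mean that the channel labelled odontoblast was the brighter one. By the sign of the mean ratio, most, but not all, markers of the compared cell types ran against these labels. The marker lists were fixed with earlier results of these data known. Of 9 odontoblast markers, 4 were called toward Cy3 by limma (Benjamini-Hochberg adjusted p under 0.05), a call made for 0.862% of all genes, led by Wnt10a at -5.91 (adjusted p = 0.00577) and Bmp7 at -4.57 (adjusted p = 0.00543). Dspp, the main dentin protein gene, stood at -1.95 (adjusted p = 0.0608), Nes at -2.0005 (adjusted p = 0.0695) and Dmp1 at -1.71 (adjusted p = 0.111). Smpd3, of the same list, went the other way at 1.41 (adjusted p = 0.218). All 8 osteoblast markers had a mean above 0, as 50.8% of all genes did, and 1 was called, Ifitm5 at 5.05 (adjusted p = 0.0173). Sp7 (0.015, adjusted p = 0.989) and Alpl (0.054, adjusted p = 0.964) had means close to 0. Ibsp (2.65, adjusted p = 0.157) and Bglap (1.34, adjusted p = 0.392) were not called, and Bglap was below 0 on arrays 2 and 3. Channels are therefore named by dye. Exchanging the labels would leave every Cy5 over Cy3 ratio as it is and exchange the cell type that each direction stands for. The 4 arrays lay on 1 slide and shared 1 scan. Their ratios correlated at 0.302 to 0.486 over the probes kept, and a spot's signal exceeded its local background by a median factor of 10.9 to 15.96 for Cy3 and 7.10 to 8.21 for Cy5. Nothing says that the arrays hold separate animals, so the spread behind each p-value is that of 4 hybridisations and may be technical.

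The probes behind the largest ratios are shown first, because each ratio reports the RNA that pairs with these 60 bases and no other part of the gene. They are the array's own sequences, 5′ to 3′, with positions on mm9, the build named in the scanner files, which give no exon annotation. The Tnmd probe lay on the plus strand at chrX:130397487-130397546 and was printed at 10 spots on every array. The Comp probe, on the plus strand of chromosome 8, had a listed range of 134 bases, from 72905692 to 72905825, which is longer than the probe. The 3 Igsf10 probes lay on the minus strand of chromosome 3, and they are shown together because they gave unlike ratios. Probe 1 had the listed range chr3:59133203-59133262, probe 2 chr3:59120657-59120679, only 23 bases long, and probe 3 chr3:59120663-59120722. By the lower ends of their listed ranges, probe 1 lay 12546 bases from probe 2 and 12540 from probe 3, on the side nearer the gene's start.
Tnmd probe: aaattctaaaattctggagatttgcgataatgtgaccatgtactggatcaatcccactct
Comp probe: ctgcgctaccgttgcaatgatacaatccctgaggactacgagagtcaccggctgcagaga
Igsf10 probe 1: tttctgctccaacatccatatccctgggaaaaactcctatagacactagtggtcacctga
Igsf10 probe 2: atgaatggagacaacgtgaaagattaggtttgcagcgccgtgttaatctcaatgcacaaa
Igsf10 probe 3: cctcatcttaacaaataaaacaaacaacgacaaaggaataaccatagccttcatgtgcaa
The Tnmd probe had a GC content of 36.7% and the Comp probe of 55%. The Igsf10 probes held 45%, 41.7% and 35% GC in the order shown.

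Most of the structural genes of the set were much brighter in Cy5, while its transcription factors were close to even and Postn leaned to Cy3. Mean ratios ran from 6.92 for Comp to -1.62 for Postn, with a median of 4.52 over the 10 genes against 0.01 over all genes tested. By the limma fit, 7 of the 10 genes were called toward Cy5, where 1.31% of all genes were, and 0 toward Cy3, where 0.862% were. The same 7 had a ratio above 0 on every array (16.2% of all genes), and 1 had a ratio below 0 on every array (15.3% of all genes). With scale normalization between arrays the fit called 6 members toward Cy5, where 272 of all 18560 genes were. It called 1, Postn, toward Cy3, where 189 of all genes were. With no filter on dim probes it called 6 members toward Cy5, where 174 of 22340 genes were. Leaving out array 1, 2, 3 or 4 gave 0, 0, 5 and 1 members called toward Cy5. Of all genes, 0, 0, 95 and 12 were called toward Cy5 in these fits. The counts of members follow from the way the genes were picked, and nothing is read from them. The 7 are Comp, Tnmd, Igsf10, Abi3bp, Thy1, Dpt and Cilp.

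**Figure D1:**
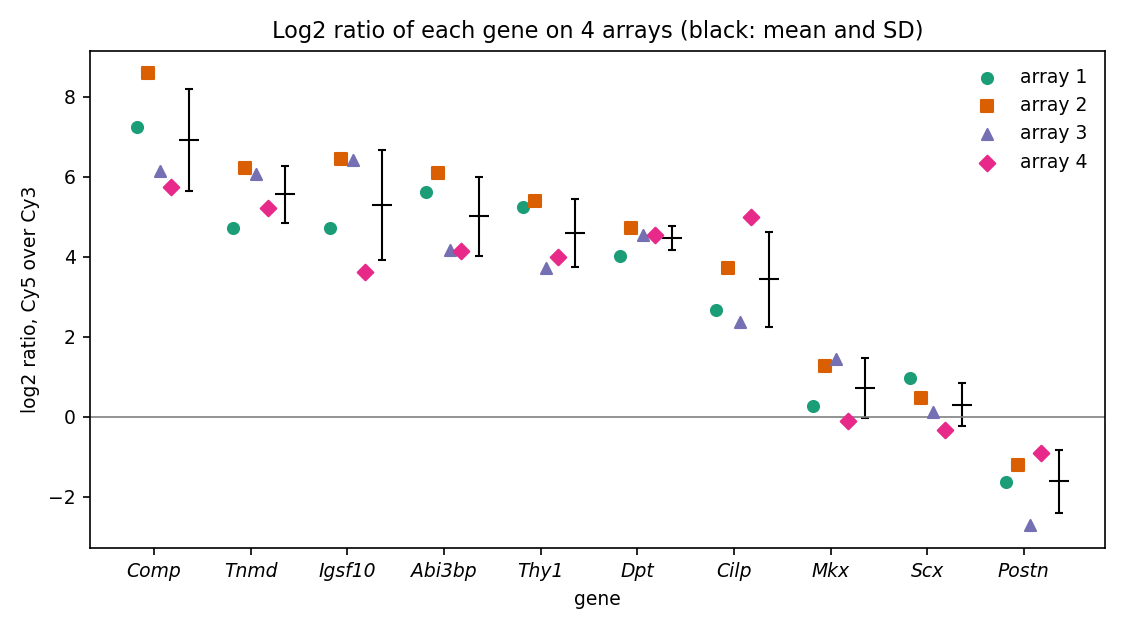
Log2 ratio of Cy5 over Cy3 (vertical axis) for each of the 10 genes (horizontal axis), with 1 coloured point per array and the mean and SD over 4 arrays in black. The 7 highest genes lie at 2.38 or above on every array, Mkx and Scx lie around 0, and Postn lies below 0 on all 4.

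Comp encodes cartilage oligomeric matrix protein, a pentameric glycoprotein that binds collagen fibrils in cartilage and tendon. Its Cy5 signal was 120232, 232956, 90157 and 53474 scanner units on arrays 1 to 4. Its Cy3 signal was 399, 258, 461 and 391 units. The channels did not approach each other on any array, and array 2 held both the brightest Cy5 spot and the dimmest Cy3 spot. The log2 ratios were 7.23, 8.58, 6.13 and 5.74, with a mean of 6.92 ± 1.28 (SD, n = 4), or 121-fold. Comp ranked 2nd, 1st, 6th and 2nd among 18560 genes on arrays 1 to 4.

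Tnmd encodes tenomodulin, a transmembrane glycoprotein of mature tenocytes. Its 10 spots averaged 11797, 14414, 17966 and 29142 units in Cy5 on arrays 1 to 4, and 237, 72.3, 85.6 and 315 units in Cy3. The log2 ratios were 4.72, 6.22, 6.06 and 5.21, with a mean of 5.55 ± 0.71 (SD, n = 4), or 47.0-fold. Array 4 was the brightest in both channels, and arrays 2 and 3 had the highest ratios. Repeat spots show how much of this spread lies within an array. The SD over the spots of 1 array, after outlier spots were removed (9 or 10 spots left), was 0.07 to 0.14, against 0.71 between the array means. The spots of arrays 2 and 3 overlapped in ratio, from 6.00 to 6.40 and from 5.86 to 6.24, while those of array 1 (4.61 to 4.90) and array 4 (5.15 to 5.38) overlapped with no other.

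Dpt encodes dermatopontin, a small matrix protein that binds decorin and collagen. Its Cy5 signal was 2193, 7671, 6240 and 7854 units on arrays 1 to 4, and its Cy3 signal was 50.4, 123, 83.8 and 128 units. The log2 ratios were 4.02, 4.72, 4.55 and 4.54, with a mean of 4.46 ± 0.30 (SD, n = 4), or 21.95-fold. This was the narrowest spread among the 10 genes, although on array 1 only 2 of the 9 spots used were well above background in Cy3. The SD over the spots of 1 array (8 to 10 spots used) was 0.10 to 0.20, against 0.30 between arrays.

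**Figure D2:**
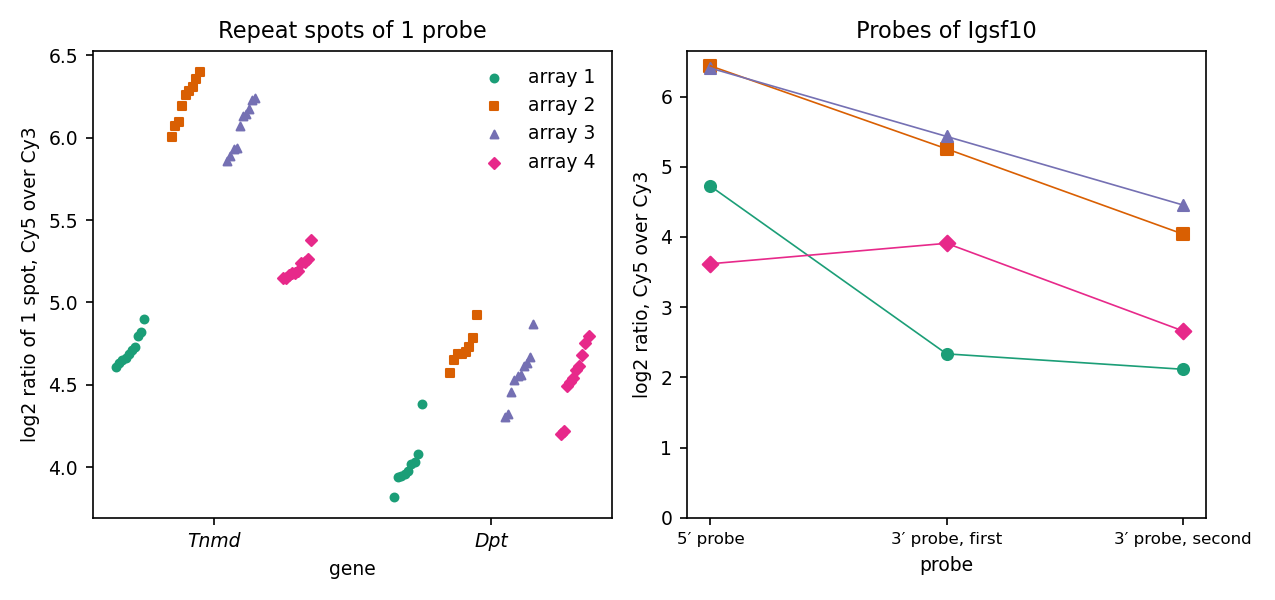
Left, the log2 ratio of every single spot of the Tnmd probe and of the Dpt probe, grouped by array. Right, the log2 ratio of the 3 Igsf10 probes, the one nearer the gene's start at the left, with a line per array. Spots of 1 array lie close together (SD of at most 0.20), and the Igsf10 probe nearer the gene's start is highest on 3 of 4 arrays.

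Igsf10 encodes a large secreted protein with leucine-rich repeats and immunoglobulin domains. Its brightest probe, probe 1 above, read 16763, 41937, 41054 and 29260 units in Cy5 on arrays 1 to 4 and 345, 216, 173 and 951 units in Cy3. Its log2 ratios were 4.72, 6.44, 6.40 and 3.62, with a mean of 5.30 ± 1.37 (SD, n = 4). Arrays 2 and 3 were the high ones on this probe and on both others. Probe 2 averaged 4.23 ± 1.44 (SD, n = 4) and probe 3 averaged 3.32 ± 1.11 (SD, n = 4). Probe 1 exceeded probe 3 on all 4 arrays, by 0.96 to 2.61 and by 1.98 ± 0.73 on average (SD, n = 4). It exceeded probe 2 on 3 of 4 arrays, by 1.06 ± 1.10 on average (SD, n = 4). The listed ranges of probes 2 and 3 have lower ends 6 bases apart, but that of probe 2 spans only 23 bases of a 60-base probe. How these 2 probes lie to each other is therefore uncertain. Probe 2 was higher than probe 3 on all 4 arrays, by 0.91 ± 0.48 (SD, n = 4). The size of the Igsf10 ratio, from 9.98-fold to 39.3-fold, thus depended on the probe, and its direction did not.

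Abi3bp encodes a secreted protein that binds the SH3 domain of Abi3 and is found in matrix. Its Cy5 signal was 8393, 27769, 7082 and 8584 units on arrays 1 to 4, against 71.9, 180, 134 and 193 units in Cy3. The log2 ratios were 5.61, 6.09, 4.17 and 4.15, with a mean of 5.005 ± 0.99 (SD, n = 4), or 32.1-fold. Arrays 1 and 2 were both higher than arrays 3 and 4. Thy1, a surface glycoprotein used as a marker of fibroblasts and stromal progenitors, followed the same order of array pairs. Its Cy5 signal was 26442, 42842, 38440 and 25752 units and its Cy3 signal 380, 476, 1095 and 649 units. The log2 ratios were 5.24, 5.39, 3.71 and 3.9997, with a mean of 4.58 ± 0.85 (SD, n = 4), or 23.98-fold. Abi3bp exceeded Thy1 in ratio on all 4 arrays, by 0.42 ± 0.23 on average (SD, n = 4).

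Cilp encodes cartilage intermediate layer protein, a matrix protein of cartilage and tendon that is known to bind TGF-beta. Its Cy5 signal was 754, 1822 and 1020 units on arrays 1 to 3 and 10478 units on array 4. Its Cy3 signal was 42.1, 46.9, 55.6 and 123 units, and only array 4 was well above background in that channel. The log2 ratios were 2.66, 3.71, 2.38 and 4.98, with a mean of 3.43 ± 1.18 (SD, n = 4), or 10.8-fold. Array 4 was thus the high one for Cilp in both channels and in ratio, whereas it was the lowest of the 4 arrays for 5 of the 10 genes. With the scanner software's own processed signals in place of the correction used here, the mean Cilp ratio was 5.40. The correction adds an offset of 50 to both channels, which pulls the ratio of a dim probe toward 0, and with an offset of 16 the mean was 4.03. Dpt was moved likewise, from 4.46 to 5.62 with the processed signals, and Tnmd from 5.55 to 6.31. Abi3bp went from 5.005 to 5.70, a shift below its SD of 0.99.

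**Figure D3:**
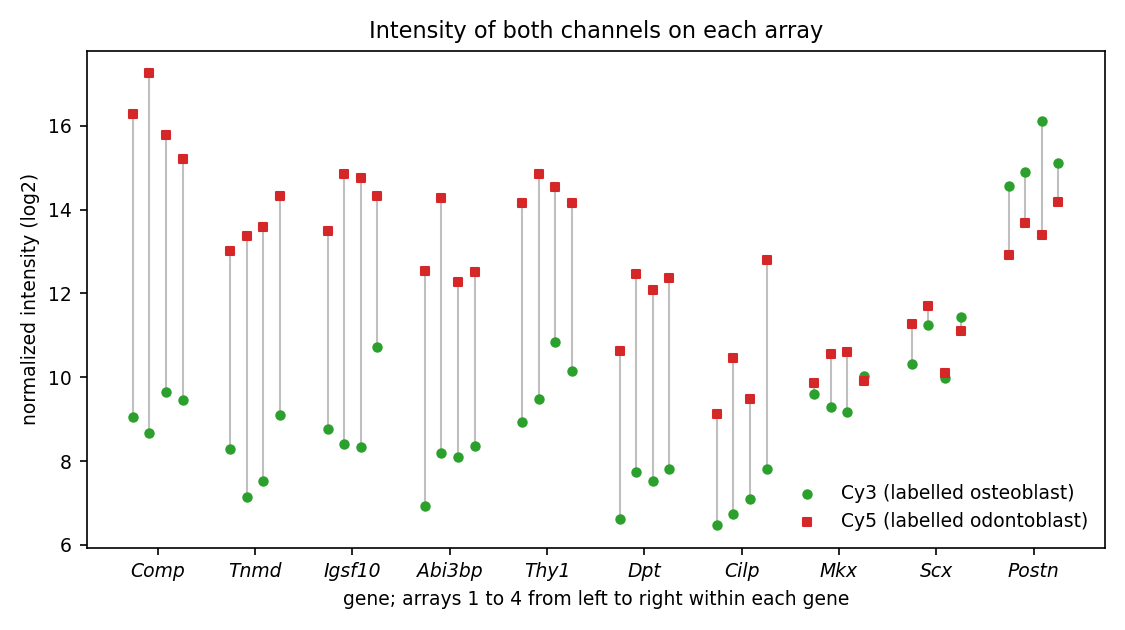
Normalized log2 intensity of the Cy3 channel (green circles) and the Cy5 channel (red squares) on arrays 1 to 4, for the probe that stands for each gene. The vertical distance between joined points is the log2 ratio, and heights are not comparable between genes because each gene has its own probe.

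The transcription factors of the tendon programme did not share the large ratios. Scx, the basic helix-loop-helix factor scleraxis, read 3552, 4693, 1564 and 3100 units in Cy5 and 1060, 1714, 574 and 1710 units in Cy3 on arrays 1 to 4. Its log2 ratios after loess were 0.96, 0.46, 0.12 and -0.34, with a mean of 0.30 ± 0.55 (SD, n = 4), or 1.23-fold. Both channels were well above background on every array, so the Scx ratio is not limited by a dim spot. Mkx, the homeobox factor mohawk, had ratios of 0.27, 1.25, 1.44 and -0.12, with a mean of 0.71 ± 0.76 (SD, n = 4). Its signal was 1309, 2017, 2216 and 1443 units in Cy5 against 618, 411, 314 and 696 units in Cy3. Both factors were above 0 on 3 of 4 arrays and below 0 on array 4. Without array 4 the mean was 0.51 for Scx and 0.99 for Mkx, and without array 1 that of Scx was 0.08.

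Postn encodes periostin, a matricellular protein named for its presence in periosteum and periodontal ligament. It was the only member with a ratio below 0 on every array. The Cy3 signal was 17937, 18825, 40204 and 17424 units and the Cy5 signal 12594, 20890, 21059 and 28969 units on arrays 1 to 4. On arrays 2 and 4 the raw Cy5 signal was the larger one. Over all spots that are not controls, however, the raw median log2 ratio was 0.998 to 1.28 before normalization, and after it Postn fell below 0 on those arrays too. The normalized log2 ratios were -1.64, -1.21, -2.72 and -0.92, with a mean of -1.62 ± 0.79 (SD, n = 4), or 3.08-fold more in Cy3. With median centring in place of loess the mean was -0.95. Array 3 had the lowest ratio and the brightest Cy3 spot.

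In order of their mean ratios the genes ran Comp, Tnmd, Igsf10, Abi3bp, Thy1, Dpt, Cilp, Mkx, Scx and Postn. Within arrays, Comp exceeded Tnmd on all 4, by 1.37 ± 1.25 (SD, n = 4). Tnmd and Igsf10 did not differ beyond their spread, since Tnmd was higher on only 1 array and the mean difference of 0.26 was below its SD of 0.90. The mean differences between Igsf10 and Abi3bp (0.29), Thy1 and Dpt (0.13), Dpt and Cilp (1.02), and Mkx and Scx (0.41) were also smaller than their SDs. Cilp exceeded Mkx on every array, by 2.72 ± 1.73 on average (SD, n = 4), but the size of that step and the place of Cilp are not exact, since its Cy3 signal was well above background on 1 array only. Scx exceeded Postn on every array, by 1.92 ± 1.03 (SD, n = 4). The order among the 7 large ratios depended on the processing, and the place of Igsf10 also on the probe. With the mean of all its probes Igsf10 stood at 4.28, below Abi3bp (5.005), Thy1 (4.58) and Dpt (4.46). With the software's processed signals Thy1 (4.72) came after Dpt (5.62) and Cilp (5.40), and Igsf10 (5.60) came after Abi3bp (5.70) and Dpt. Mkx, Scx and Postn stayed the lowest, in this order, with those signals.

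Array 2 held the highest ratio for 6 of the 10 genes and array 4 the lowest for 5. The median over the 10 genes was 4.37, 5.05, 3.94 and 4.07 on arrays 1 to 4, where that of all genes was between -0.01 and 0.05. The number of members above 0 was 9 on arrays 1 to 3 and 7 on array 4.

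The genes with the 4 ratios closest to a member's own were found by Euclidean distance over the 4 arrays, among 15461 genes well above background in both channels on at least 3 arrays. For Tnmd these were Nfib at a distance of 1.54, Tbx15 at 1.61 and Igsf10 at 1.65. Nfib and Tbx15 encode transcription factors, and the 5 Nfib probes kept had mean ratios from 0.11 to 5.42, so this likeness rests on its brightest probe. The Igsf10 probes had mean ratios from 3.32 to 5.30, so the likeness of Igsf10 to Tnmd rests on its brightest probe too. For Comp the closest were Mgp at 2.48, Nfib at 3.12 and Tnmd at 3.49. Mgp encodes matrix Gla protein, an inhibitor of calcification. Scx lay within 0.23 of Gk2, Olfr1215 and Tram1, and Mkx within 0.33 of Ccdc63, Cd300c and Cdkn1b. Genes are dense near 0, which makes short distances common there.

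Paralogues, genes that share ancestry with a member, show how far the pattern reached within each family. Comp is a thrombospondin, and of the other 4 thrombospondins Thbs4, a tendon and muscle matrix protein, stood at 4.53 ± 0.48 (SE, n = 4, limma adjusted p = 0.0239). Its ratios were 4.93, 5.97, 3.09 and 4.14 on arrays 1 to 4. Thbs2, found in dense connective tissue, stood at 3.12 ± 0.38 (SE, n = 4, limma adjusted p = 0.0327), with ratios of 2.18, 4.37, 2.72 and 3.22. Both rose toward Cy5 on every array. Thbs1 (0.56, adjusted p = 0.334) and Thbs3 (-0.26, adjusted p = 0.842, and 0.49 without array 3) were not called. Among relatives of Scx, Twist1, a factor of skull mesenchyme, was higher in Cy5 at 1.65 (adjusted p = 0.0341, but 0.0652 from the processed signals), while Twist2 (-1.38, adjusted p = 0.268) and Tcf15 (-0.38, adjusted p = 0.311) were not called. The Iroquois genes, relatives of Mkx, gave 0 limma calls among 5 measured (1 had an unadjusted p under 0.05), with means of 0.86 for Irx2 (adjusted p = 0.136), 1.26 for Irx3 (adjusted p = 0.271), 0.13 for Irx4 (adjusted p = 0.811, and -0.13 without array 1), 0.93 for Irx5 (adjusted p = 0.320) and -0.11 for Irx6 (adjusted p = 0.747). Tgfbi, the paralogue of Postn, had a mean of -0.84 (adjusted p = 0.505), and Cilp2 one of -0.11 (adjusted p = 0.856, and 0.084 with median centring). Fndc1, which like Abi3bp carries fibronectin type III domains, stood at 2.24 (adjusted p = 0.145). With the mean of all its probes Fndc1 was called toward Cy5 at 2.32 (limma adjusted p = 0.0415). Cnmd, the chondromodulin gene related to Tnmd, did not pass the filter on dim probes. In all, 3 of 15 measured relatives were called toward Cy5, against 1.31% of all genes, and 0 toward Cy3. Thbs4 is among the called ones and is counted again with the tendon matrix genes below. The median of the 15 relatives was 0.56.

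The matrix of tendon beyond the set also lay toward Cy5. Of 27 collagens, proteoglycans, cross-linking enzymes and glycoproteins of tendon, 25 had a mean above 0, where 50.8% of all genes did. By limma 7 were called toward Cy5, where 1.31% of all genes were, and 0 toward Cy3, where 0.862% were. An unadjusted limma p under 0.05 was found for 22, against 21.4% of all genes. The median was 1.80. The largest were Aspn, the collagen-binding proteoglycan asporin, at 4.89 ± 0.32 (SE, n = 4, limma adjusted p = 0.00854), then Thbs4, and Tnc, the tenascin of tendon and wound matrix, at 4.24 ± 0.34 (SE, n = 4, limma adjusted p = 0.0147). Fn1, fibronectin, followed at 3.85 ± 0.57 (SE, n = 4, limma adjusted p = 0.0480), and was not called under 5 of the alternatives that use all arrays, for example from the processed signals (adjusted p = 0.0693). The others were Col1a2, Col6a3 and Lum, at 2.38 to 2.79, named after their values were seen. Of the brightest uncalled genes, Lox, the collagen cross-linking enzyme, stood at 0.58 (adjusted p = 0.432, with -0.11 from its other probe), and Col1a1, the main fibrillar collagen chain, at 1.80 (adjusted p = 0.0526), which was called under 4 alternatives. Tnxb and Ccn2 were the 2 with a mean below 0, at -1.55 (adjusted p = 0.152) and -0.95 (adjusted p = 0.1201), both named after their values were seen.

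The regulators of tendon, like Scx and Mkx themselves, were mixed. Of 25 measured, 17 had a mean above 0 (50.8% of all genes) and 10 an unadjusted limma p under 0.05 (21.4% of all genes). By the adjusted p 2 were called toward Cy5, where 1.31% of all genes were. These were Spry1, an inhibitor of FGF signalling, at 1.78 (adjusted p = 0.0480) and Tgfb3, a TGF-beta ligand, at 1.45 (adjusted p = 0.0333). Toward Cy3, where 0.862% of all genes were called, stood Etv4, a transcription factor that FGF signalling induces. Its mean was -1.89 (adjusted p = 0.0263), with -0.79 from its other probe. The median was 0.40. The brightest uncalled members were Eya1 (0.41, adjusted p = 0.373), a transcriptional co-activator, and Tgfb2 (0.15, adjusted p = 0.826, and -0.11 without array 2). The Spry1 call was lost with an offset of 16 (adjusted p = 0.0566) and with 4 other settings on all arrays, and Tgfb3 was not called from the processed signals (adjusted p = 0.0660).

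Limma calls were 0 among 15 measured receptors and partners of the encoded proteins, such as the integrins that bind periostin and Thy1. Of all genes, 1.31% were called toward Cy5 and 0.862% toward Cy3. An unadjusted p under 0.05 was found for 5 of the 15, against 21.4% of all genes. The median of the 15 was 0.17, and median centring gave 2 calls toward Cy5. The brightest of them were Itgam at 0.17 (adjusted p = 0.684) and Itgb1 at -0.73 (adjusted p = 0.131), which stood at 0.27 with median centring. The other 2 kept Itgam probes reached up to 1.42.

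Other markers of fibroblasts and periosteum were mixed. Of 24 such genes, 14 had a mean above 0, where 50.8% of all genes did, and 14 had an unadjusted p under 0.05, where 21.4% of all genes had one. By the adjusted p 1 was called toward Cy5, where 1.31% of all genes were, namely Cd200, a surface protein of skeletal progenitors, at 2.13 (adjusted p = 0.0430). Their median was 0.67. The brightest uncalled ones were S100a4 (-0.995, adjusted p = 0.223), a calcium-binding protein of fibroblasts, and Sfrp2 (0.84, adjusted p = 0.620), a secreted Wnt antagonist. The uncalled means ran from -1.48 for Nt5e (adjusted p = 0.221), a surface enzyme of stromal cells, to 2.95 for Mfap5 (adjusted p = 0.0526), a protein of microfibrils, both named after their values were seen.

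**Figure D4:**
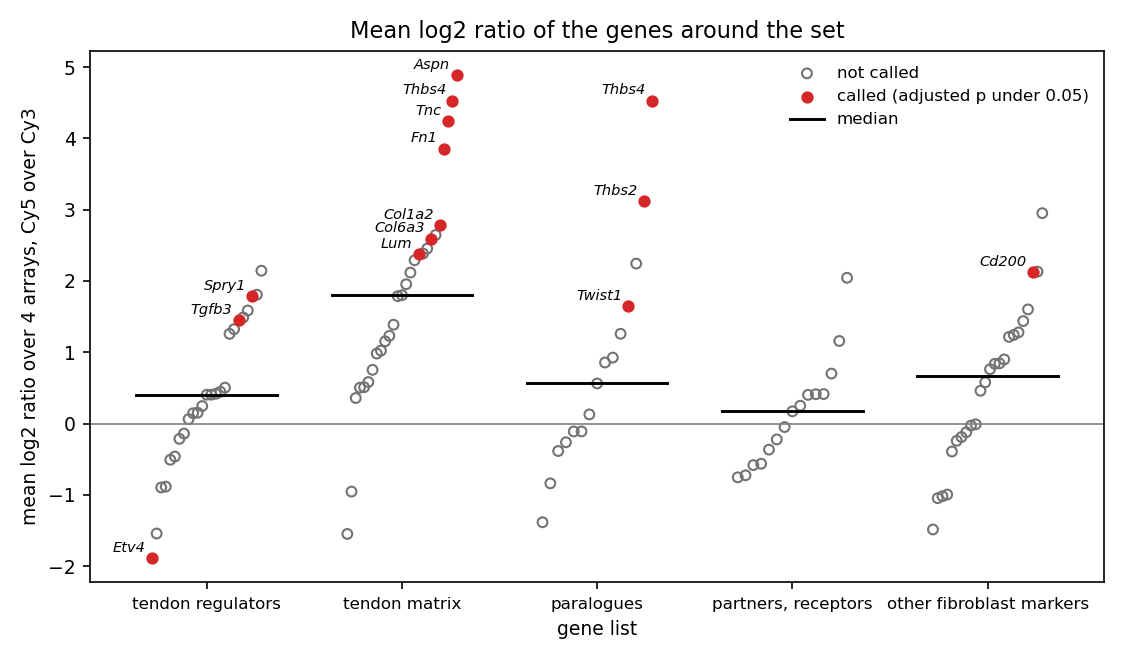
Mean log2 ratio over 4 arrays (vertical axis) of each gene measured in 5 related lists (horizontal axis), with genes called by limma in red, others as open circles and the list median as a black bar. The tendon matrix list has the highest median, 1.80, and 7 called genes, while the list of partners and receptors has none.

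The calls in these lists depended on the number of arrays. With array 1 or array 2 left out, limma made 0 calls in the whole table, although 3041 and 3250 genes had an unadjusted p under 0.05, against 3980 with all arrays. Without array 3, 5 tendon matrix genes and 1 relative of a member (Thbs4) were called, and without array 4 only 1 tendon matrix gene (Aspn) and 0 relatives. Of all genes, 244 were called toward Cy5 and 160 toward Cy3, a share of 60.4% for Cy5. With median centring, under which the median of all genes was 0.21 instead of 0.01, that share was 83.2%.

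Markers of other cell types were read beside these results, as the summed processed signal of each list, 1 spot per gene. For the counts below, limma called 1.31% of all genes toward Cy5 and 0.862% toward Cy3, and 21.4% had an unadjusted p under 0.05. Cartilage markers, a tissue that also expresses Comp and Cilp, summed to 2867 to 5347 units in Cy3 and 8693 to 41548 units in Cy5. Of 9 measured, Col2a1 (4.34, adjusted p = 0.0487) and Col11a2 (2.22, adjusted p = 0.0410) were called toward Cy5. Col2a1 was not called with scale normalization (adjusted p = 0.0532) or with no filter (adjusted p = 0.0759), nor Col11a2 with the processed signals (adjusted p = 0.0660) or with no filter (adjusted p = 0.0574). In Cy3, Col2a1 passed the background test on just 1 array, and Cnmd and Ucma did not pass the filter. Macrophage markers summed to 20785 to 26662 units in Cy3 and 32947 to 88226 units in Cy5, with 3 of 8 called toward Cy5 (Lyz2, Laptm5 and Ctss). Ctss passed the background test in Cy3 on 1 array and was not called with the processed signals (adjusted p = 0.0512). Csf1r and Cd68, of the same list, stood at -0.39 (adjusted p = 0.285) and -0.10 (adjusted p = 0.841), with their other probes down to -2.84 and -1.20. With the mean of all its probes, Csf1r was called toward Cy3 at -1.70 (adjusted p = 0.0358), and with median centring its brightest probe stood at 0.25. Skeletal muscle markers overlapped between channels, at 10749 to 16164 units in Cy3 and 8659 to 11722 units in Cy5, with 0 of 7 called by limma (0 with an unadjusted p under 0.05). Limma also called 0 of 6 endothelial markers (0 with an unadjusted p under 0.05) and 0 of 6 Schwann cell markers (3 with one), and both lists overlapped in their summed signal. Smooth muscle and pericyte markers had 1 of 7 called, Cnn1 toward Cy3 (-2.60, adjusted p = 0.0341). Dental epithelium markers had 2 of 7 called toward Cy3, Odam (-5.00, adjusted p = 0.00614) and Ambn (-3.05, adjusted p = 0.0239). No measured marker of these lists was dim in a channel on all 4 arrays. The part of cartilage cells or macrophages in the ratios of the set was not tested.

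**Figure D5:**
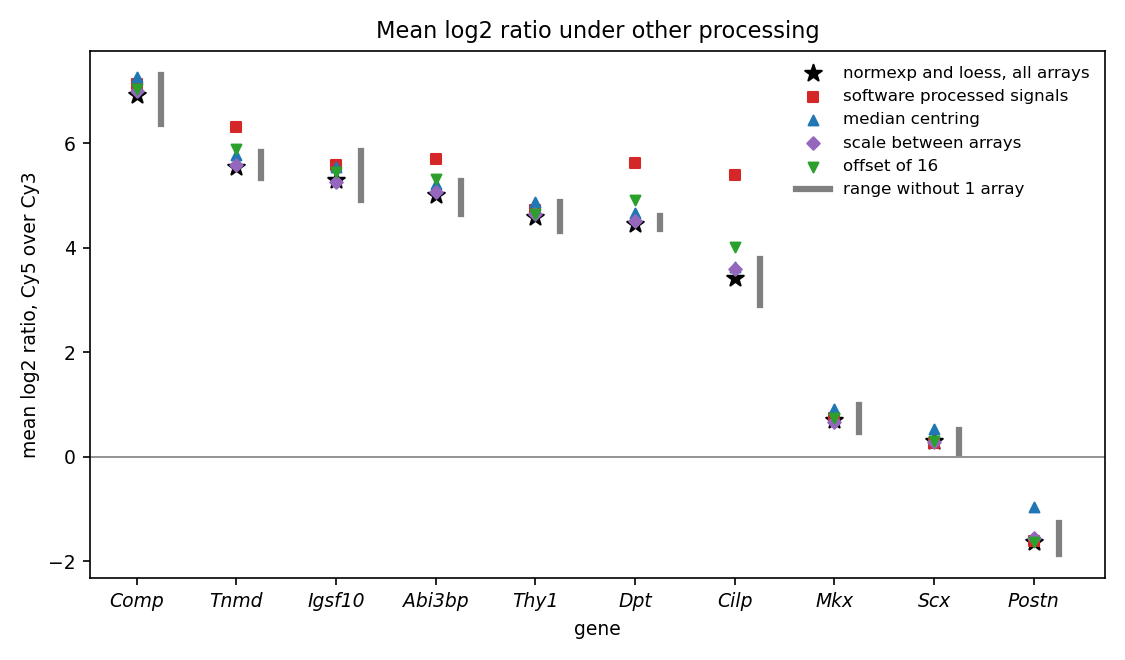
Mean log2 ratio of each gene (vertical axis) under 5 ways of processing all 4 arrays (symbols) and the range when 1 array is left out (grey bars). The sign of every gene is the same throughout, and the dim genes Dpt and Cilp move most, to 5.62 and 5.40 with the software's processed signals.

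Promoter sequence from RefSeq (GRCm38.p6, 250 bases before to 50 after a gene's start) was found for 5 of the 10 genes, namely Tnmd, Igsf10, Dpt, Postn and Cilp. Scx belongs to the helix-loop-helix factors, which bind 6-base sites called E-boxes, so 2 of these were searched, CATCTG and CACCTG, each on both strands (CAGATG and CAGGTG are their complements). CATCTG occurred in 17.2% of all promoters of this length and CACCTG in 20.2%. Dpt held 1 of each, with first bases at -18 and -224 from the start, and Igsf10 held 1 CACCTG, with its first base at -159. The windows of Tnmd, Postn and Cilp held neither. The 2 promoters with a match are printed with it in capitals, from chr1:164796413-164796712 on the plus strand for Dpt and chr3:59344207-59344506 on the minus strand for Igsf10.
Dpt promoter: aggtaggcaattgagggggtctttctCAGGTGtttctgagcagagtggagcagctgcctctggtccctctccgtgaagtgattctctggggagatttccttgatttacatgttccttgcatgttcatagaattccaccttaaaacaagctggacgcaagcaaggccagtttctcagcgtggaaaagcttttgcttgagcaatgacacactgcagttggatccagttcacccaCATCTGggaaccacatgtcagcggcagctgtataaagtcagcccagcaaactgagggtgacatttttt
Igsf10 promoter: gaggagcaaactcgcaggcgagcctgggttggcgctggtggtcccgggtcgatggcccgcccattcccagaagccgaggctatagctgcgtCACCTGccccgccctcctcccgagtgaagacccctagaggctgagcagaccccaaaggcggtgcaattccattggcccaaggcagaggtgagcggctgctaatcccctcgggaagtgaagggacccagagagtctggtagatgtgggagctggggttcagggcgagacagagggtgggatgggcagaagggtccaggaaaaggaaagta
A match in letters describes the sequence and does not show binding.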

How the data were processed

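The data are 4 two-colour arrays, each with RNA of both cell types, and all form 1 group. Per the file headers, Agilent Feature Extraction 10.7.3.1 wrote the deposited scanner files, which hold the mean spot intensity and median local background intensity of both channels, not normalized. They also hold intensity values processed by the software (background subtracted, dye normalized), their log10 ratio, and flags given as the number 0 or 1. A deposited value table holds log10 ratios. For at least 99.6% of probes per array these lay within 0.001 of the log10 ratio in the deposited scanner files, with a median of 0 in each column and no further centring found, so its scale and direction are those of the scanner files. Later steps of the authors are not given in the sources used here.

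Intensities were corrected with normexp (offset 50) and loess-normalized (limma 3.58.1, R 4.3.3). Control spots (3671) got weight 0 in loess and were then dropped, 949 outlier spot values were set to missing and 0 spots were saturated. Spots of 1 probe were averaged, and a probe counted as well above background on an array when at least 0.5 of its spots did. A probe was kept if 1 of its channels passed that test on 3 or more arrays (44236 of 55681), and the brightest stood for its gene, which gave 37221 features with 18560 genes. Names came from RefSeq (GRCm38.p6), by accession for 27325 probes and by symbol for 4074, leaving 24282 unnamed. The mean ratio was tested against 0 by lmFit and eBayes (two-sided), and p-values were adjusted over all features by Benjamini-Hochberg. The fit was tested on simulated data. Channel levels used Aquantile. The members and lists were chosen with earlier results of these data known. Named are all members, up to 4 called and 2 bright uncalled genes per list, relatives of members, and nearest genes, with exceptions marked in the text. The number of arrays limits the precision.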

Additional observations from a re-analysis of the deposited data

Results flagged for a closer look

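Among 82 genes tested for an array that stood apart (the 10 members and the other named genes measured on all 4 arrays), 3 were picked out and 0 of them were members. Chance picks out about 1 in 20. Tbx15, a neighbour of Tnmd, had a ratio of 4.01 on array 4 against 5.60 to 5.76 on the others. Lhx8, an odontoblast marker, stood at -1.68 on array 4 against -3.28 to -3.10. Irx4, a relative of Mkx, stood at 0.91 on array 1 against -0.16 to -0.09.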

How the results depend on the processing

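The test was itself a paired one, because each array's ratio is the difference within a pair. With 1 group, no other paired analysis was run. Each member kept its sign under every alternative that measured it (Dpt and Cilp drop out when both channels must be well above background on all arrays), and 122 of 128 values lay within 1 SD of the first. The median of 4.52 over the members became 5.50 with the software's processed signals and with the value table, and 4.34 to 4.65 without 1 array. The processed signals and the value table both gave 156 calls toward Cy5 and 94 toward Cy3 in place of 244 and 160, median centring gave 1120 toward Cy5, and leaving out 1 array gave 0 to 95 toward Cy5 and 0 to 68 toward Cy3. Calls among tendon regulators toward Cy5 (2) became 0 with the processed signals and with the value table, 1 with an offset of 16, with no filter, with both channels above background and with an intensity trend, and 6 with median centring. Without 1 array they were 0 in each case, and those toward Cy3 (1) were 0 to 1. Calls among tendon matrix genes toward Cy5 (7) became 18 with median centring and 0 to 5 without 1 array. Calls among relatives (3) became 0 to 1 without 1 array. Partners and receptors (0) had 2 calls with median centring. Calls among the other fibroblast markers (1) became 0 with the processed signals, with the value table and with no filter, 2 with both channels above background and with the mean of all probes, 4 with median centring, and 0 without 1 array. Of 930 values of other named genes, 785 kept direction and side of the threshold, 114 lost a call, 13 gained one and 18 changed sign, none of these last called with either sign. With median centring the changed means were 0.27 for Itgb1, 0.084 for Cilp2, 0.021 for Myod1, 0.32 for Acta2, 0.25 for Csf1r, 0.14 for Cd68, 0.072 for Sox10, 0.11 for Krt14 and 0.031 for Krt5. Without 1 array, means ran from -0.68 to 0.49 for Thbs3, -0.13 to 0.23 for Irx4, -0.32 to 0.16 for Cilp2, -0.11 to 0.39 for Tgfb2, -0.16 to 0.34 for Tagln, -0.29 to 0.041 for Cd68, -0.41 to 0.34 for Sox10 and -0.58 to 0.27 for Krt5. The cause of these changes was not tested. Signal over background limits the size of the Cilp and Dpt ratios most. The Tnmd and Abi3bp ratios also rose with the processed signals, to 6.31 and 5.70. All p-values rest on 4 arrays with no dye swap.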
